A study of Homo sapiens with 4 samples.

Results

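Described here are the 2 control libraries of KMS11, out of 4 RNA sequencing libraries in the series, chosen by their label and not by any measured value. KMS11 is an established human myeloma cell line, grown from malignant plasma cells, and it carries the translocation t(4;14). The control cells had been infected with lentivirus carrying a control shRNA, with polybrene at 10 µg/mL. They were collected 96 h after infection, which included 72 h in fresh medium, and 1 µg of their total RNA went into an Illumina TruSeq library. The cells are therefore infected, shRNA-treated controls and not untouched KMS11, and the target of the control shRNA is named differently within one deposited header (Scr in the alignment names, LUC in the contrast). The labels do not say whether replicates 1 and 2 were separate cultures, so the spread between them may be technical. The other 2 libraries, labelled as given an shRNA against NSD2, were not compared.

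Plasma cells are the end stage of the B cell lineage and live to secrete antibody. During that step the factors IRF4, PRDM1 and XBP1 take over from PAX5, many B cell surface proteins are lost, and the endoplasmic reticulum grows to fold immunoglobulin. In myeloma with t(4;14), the immunoglobulin heavy chain locus is joined to chromosome 4 near FGFR3, a receptor tyrosine kinase gene, and NSD2, a gene of a histone methyltransferase. The questions here are which transcripts dominate in these cells, which oncogenes are transcribed, and which lineage and surface genes are present or missing.

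The libraries held 50417758 and 46728940 fragments counted on genes. A level is given as CPM, the fragments of a gene as parts per 1e6 counted fragments, or as TPM. TPM also divides by the exonic length of the gene and so lets genes be compared approximately with each other. That length joins the exons of every listed transcript of the gene. A gene is called on where it reached 1 CPM in both libraries, at the floor where it had 3 fragments or fewer in each, and low in between. A gene listed at 0 could still have up to 3 fragments, which is 0.0595 CPM in replicate 1 and 0.0642 CPM in replicate 2. These limits cover counting error only. Values given in pairs are for replicates 1 and 2 in that order, and no test was made, since there is 1 group. Some genes share exons with another annotated gene, and their levels are uncertain because fragments on shared exons were not counted. Among the genes named below, HLA-G, ICAM1, TNFRSF13B, CD80, IL21R, LYZ, CDK4, SCD, MIAT, MT-ATP8 and COX6B2 share between 20.4% (MIAT) and 52.9% (LYZ) of their exonic length in this way, and others are marked where they appear. RNA came from the whole culture, so fewer cells expressing a gene and less RNA per cell cannot be told apart.

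Of 62069 genes in the files, 13118 (21.1%) were on, 8061 (13.0%) were low and 40890 (65.9%) were at the floor. Among 19181 protein-coding genes, 11527 (60.1%) were on, 2656 (13.8%) were low and 4998 (26.1%) were at the floor. These 60.1% and 26.1% are the background against which each list of protein-coding genes is read below. The median protein-coding gene stood at 4.35 TPM (mean of both libraries), and the median protein-coding gene that was on at 21.2 TPM. Means of 100 TPM or more were reached by 1444 protein-coding genes, and of 1000 TPM or more by 83.

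Replicate 1 and replicate 2 had close levels for most genes. Across the 13118 genes on, the median distance between the libraries was 1.102-fold, and Pearson's r of log2 CPM was 0.994 across genes, which are not independent replicates. A distance over 1.5-fold was found for 434 genes (3.31%) and over 2-fold for 58. Low genes were farther apart: the median distance was 1.16-fold between 1 and 10 CPM and 1.08-fold between 100 and 1000 CPM. For 54.8% of the genes on, the libraries differed by more than the 95% range of counting error alone, so the spread between them was larger than counting error. Some genes described below were far apart, such as ESRP1 (17.6 and 5.16 CPM), IKZF3 (140 and 264 CPM) and FN1 (281 and 537 CPM), and a mean of such genes should be read with that spread.

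**Figure D1:**
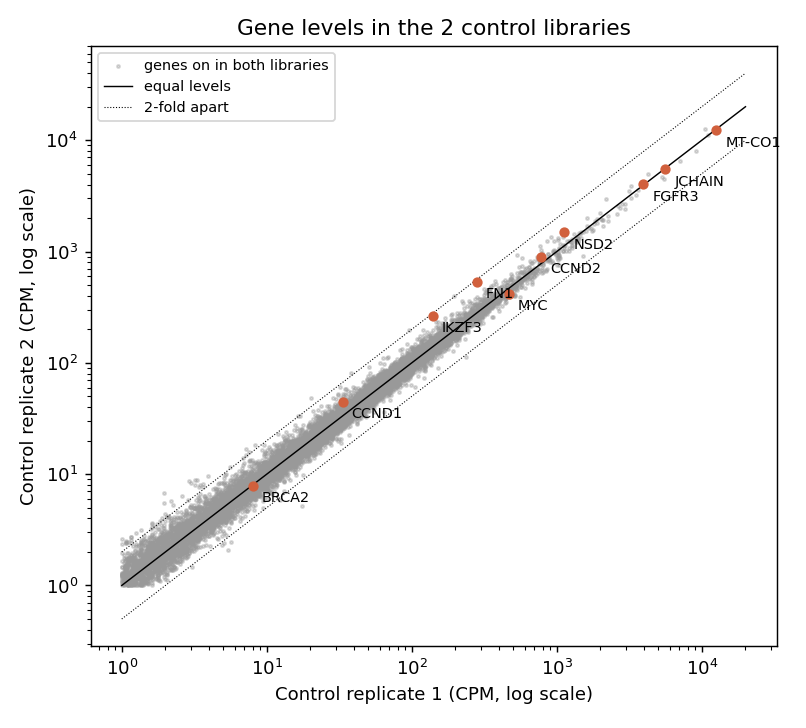
Level of each of the 13118 genes on in control replicate 1 (x axis, CPM, log scale) and control replicate 2 (y axis, CPM, log scale), 1 point per gene, with named genes in orange, the line of equal levels and dotted lines 2-fold apart. Most genes lie near the line of equal levels, and 58 lie beyond the dotted lines.

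The counted fragments were spread over many genes, although removing duplicates can lower the share of the most abundant ones. The most abundant gene took 1.26% of fragments in each library, the 10 most abundant took 7.502% and 7.43%, and the 100 most abundant took 21.5% and 21.2%. It took 836 genes in replicate 1 and 844 in replicate 2 to reach 50% of the fragments. Protein-coding genes held 95.6% and 95.3% of fragments, long noncoding RNA genes 1.06% and 1.11%, and pseudogenes 0.883% and 0.872%. Per length the picture was more concentrated, with the 100 highest genes holding 40.4% and 39.9% of all TPM.

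**Figure D2:**
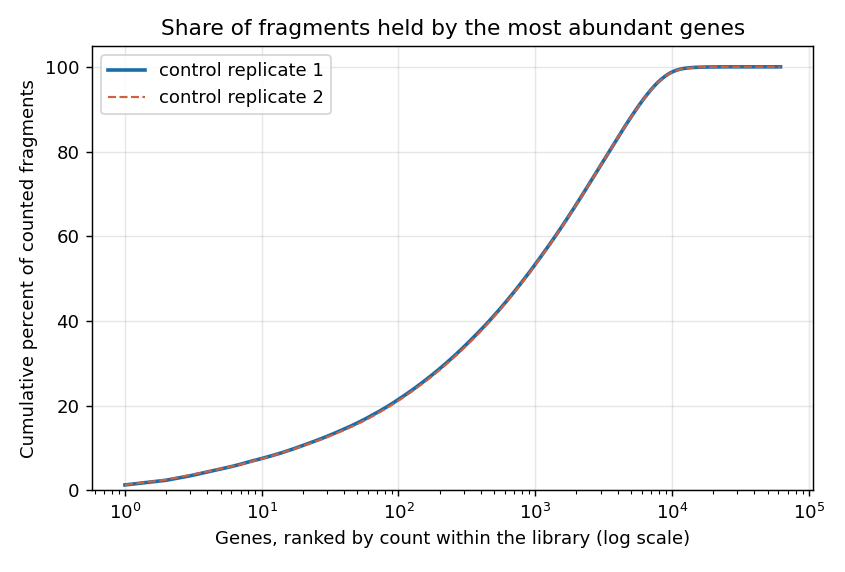
Cumulative percent of counted fragments (y axis) against the number of genes ranked by count (x axis, log scale), with 1 line per control library. The curves lie on each other, and the 1000 most abundant genes hold 53.4% and 53.2% of fragments.

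Mitochondrial genes led the ranking. They took 5.89% and 5.86% of fragments, and 19.9% and 20.2% of TPM because they are short. MT-CO1, a subunit of cytochrome c oxidase, was the most abundant gene by mean CPM, at 12557 and 12267 CPM. MT-RNR2, the large mitochondrial ribosomal RNA, followed at 10522 and 12648 CPM. MT-CO3 stood at 9109 and 8057 CPM, MT-CO2 at 7098 and 6543 CPM, MT-ND4 at 5334 and 4714 CPM, MT-CYB at 2934 and 2692 CPM and MT-ND5 at 2196 and 2994 CPM. MT-ND4L (16615 and 18297 TPM), MT-ATP8 (9251 and 9409 TPM), MT-ND1 (8408 and 7214 TPM), MT-ND2 (6621 and 6288 TPM), MT-ND3 (4677 and 4310 TPM) and the transfer RNA gene MT-TC (4602 and 4903 TPM) joined the 20 highest genes per length. MTATP6P1, a near-identical copy of mitochondrial sequence on chromosome 1, is listed at 3228 and 3008 CPM while MT-ATP6 itself is listed at 420 and 387 CPM, so the split of fragments between these copies is uncertain. MTND4P12, a copy on chromosome 5, is listed at 1271 and 1078 CPM. Fragments of both copies are part of the pseudogene share given above and not of the mitochondrial shares, which are uncertain to that extent.

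Among nuclear genes, those of translation and the cytoskeleton were near the top. EEF1A1, which brings aminoacyl-tRNA to the ribosome, was the highest nuclear gene by CPM at 11075 and 11092 CPM, and EEF2 stood at 2811 and 2689 CPM. Of 85 genes whose symbols mark cytosolic ribosomal proteins, 82 were on, with a median of 543 TPM, and together they took 6.03% and 5.76% of fragments. RPL10 was at 3495 and 3251 CPM, although 37.0% of its exonic length is shared with other genes. FLNA, an actin crosslinker, stood at 4269 and 4961 CPM, ACTB at 2655 and 2542 CPM, and GAPDH at 3125 and 3515 CPM. S100A11, a small calcium-binding protein gene, was at 4503 and 4082 TPM. An unnamed gene of 57 bp on the unplaced contig GL000220.1 (ENSG00000263544) reached 4743 and 5906 TPM from 88.1 and 106 CPM, which shows how far a short length lifts TPM.

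One of the most abundant transcripts is known from another tissue. CRYBB1, a beta crystallin of the eye lens (ENSG00000100122, chromosome 22, 26995242 to 27014052, GRCh37), stood at 1102 and 1347 CPM, or 3068 and 3877 TPM, rank 21 of all genes by TPM. Its exons are shared with no other annotated gene. CRYBA4, another beta crystallin gene, stood at a mean of 16.7 TPM, and CRYBB1 was 284 and 171 times as high per length. Of 15 crystallin genes, 4 were on and 6 were at the floor. UCHL1, a ubiquitin hydrolase known from neurons (1625 and 1393 TPM), and CREG1, a secreted glycoprotein gene (2018 and 1846 TPM), were also among the 60 highest nuclear protein-coding genes; both were chosen after their values were seen.

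The annotated promoters of 4 abundant genes of different kinds show how unlike their annotated starts are. The genes are EEF1A1 as a gene of every cell, JCHAIN as the plasma cell gene with the highest level, CRYBB1 as the lens gene, and FGFR3 as the translocated receptor gene. Which starts these cells use was not measured. Each run is the RefSeq sequence of GRCh38.p14 from 250 bases before to 50 bases after the annotated start, 5′ to 3′ in the direction of the gene, and capitals mark every CG dinucleotide.
EEF1A1 (chr6:73520983-73521282, minus strand): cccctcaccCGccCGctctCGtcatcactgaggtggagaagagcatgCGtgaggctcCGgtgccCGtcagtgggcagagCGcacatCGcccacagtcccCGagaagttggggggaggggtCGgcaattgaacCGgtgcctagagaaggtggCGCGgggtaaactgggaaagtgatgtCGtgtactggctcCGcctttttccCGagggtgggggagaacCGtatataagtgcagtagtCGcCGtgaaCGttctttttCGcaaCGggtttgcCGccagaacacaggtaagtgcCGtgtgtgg
JCHAIN (chr4:70666459-70666758, minus strand): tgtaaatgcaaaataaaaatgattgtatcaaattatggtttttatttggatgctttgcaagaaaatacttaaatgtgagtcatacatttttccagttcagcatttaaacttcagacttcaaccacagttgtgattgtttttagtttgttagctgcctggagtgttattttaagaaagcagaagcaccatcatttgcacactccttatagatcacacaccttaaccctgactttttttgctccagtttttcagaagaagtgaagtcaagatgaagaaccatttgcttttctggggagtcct
CRYBB1 (chr22:26617978-26618277, minus strand): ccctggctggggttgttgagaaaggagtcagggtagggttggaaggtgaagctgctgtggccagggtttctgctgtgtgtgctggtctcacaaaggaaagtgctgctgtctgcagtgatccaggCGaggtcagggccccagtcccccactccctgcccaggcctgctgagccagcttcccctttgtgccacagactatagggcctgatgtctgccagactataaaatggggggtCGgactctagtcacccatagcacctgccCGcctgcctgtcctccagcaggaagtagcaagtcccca
FGFR3 (chr4:1793043-1793342, plus strand): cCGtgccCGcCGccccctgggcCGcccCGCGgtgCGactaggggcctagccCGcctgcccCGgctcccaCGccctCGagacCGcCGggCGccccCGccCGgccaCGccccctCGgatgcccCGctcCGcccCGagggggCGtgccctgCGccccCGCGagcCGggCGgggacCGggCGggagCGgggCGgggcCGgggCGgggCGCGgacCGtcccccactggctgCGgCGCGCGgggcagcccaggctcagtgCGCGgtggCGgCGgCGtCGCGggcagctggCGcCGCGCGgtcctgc

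Read side by side, the FGFR3 window holds 51 CG dinucleotides and EEF1A1 24, whereas CRYBB1 holds 3 and JCHAIN 0. The G and C content was 86.3% for FGFR3, 60.7% for EEF1A1, 59.7% for CRYBB1 and 34.3% for JCHAIN. TATAAA, searched on both strands, occurs in the CRYBB1 window, where it starts 31 bases before the gene start, and in none of the other 3. Of 11115 protein-coding genes on whose chromosome is in the promoter table, 9622 (86.6%) matched an entry. In those with a mean of 100 TPM or more (1210 promoters) the median CG count was 27 and 7.11% held TATAAA. In those under 10 TPM (2952 promoters) the median was 25 and 6.47% held it. Between these levels (5460 promoters) the median was 27 and 4.25% held it, so the share did not follow the level. TATAAA was in 9.34% of the 15231 promoters matched to protein-coding genes of any level and in 11.95% of all promoters of the table. Fewer than 80% of genes low or at the floor matched (77.3% and 75.0%), so their promoters were not compared. A match of letters is a description and not a binding site.

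The genes that define plasma cells, the labelled cell type, were present with few exceptions. Of 26 plasma cell genes, 23 were on (88.5%, against 60.1% of protein-coding genes), 3 were low and none was at the floor, with a median of 133 TPM. JCHAIN, which joins IgA and IgM into polymers, led at 10209 and 10344 TPM. XBP1, the factor of the unfolded protein response that drives secretion, stood at 952 and 1039 TPM. TNFRSF17, the receptor BCMA, was at 867 and 1035 TPM, MZB1, an endoplasmic reticulum chaperone gene, at 657 and 602 TPM, and SDC1, the plasma cell surface marker CD138, at 558 and 564 TPM. ITM2C was at 1049 and 1021 TPM and SSR4 at 496 and 480 TPM. IRF4 stood at 312 and 379 TPM and PRDM1, which encodes BLIMP1, at 75.0 and 91.8 TPM. The 3 low genes were CD27 (1.12 and 1.30 TPM, with 39.1% of its exonic length shared with other genes), CD38 (1.55 and 0.730 TPM) and ZBTB20 (0.132 and 0.0984 TPM). CD38, a surface enzyme that is a hallmark of plasma cells, was thus at 78 and 33 fragments per library, and TNFRSF17 was 561 and 1419 times as high per length.

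**Figure D3:**
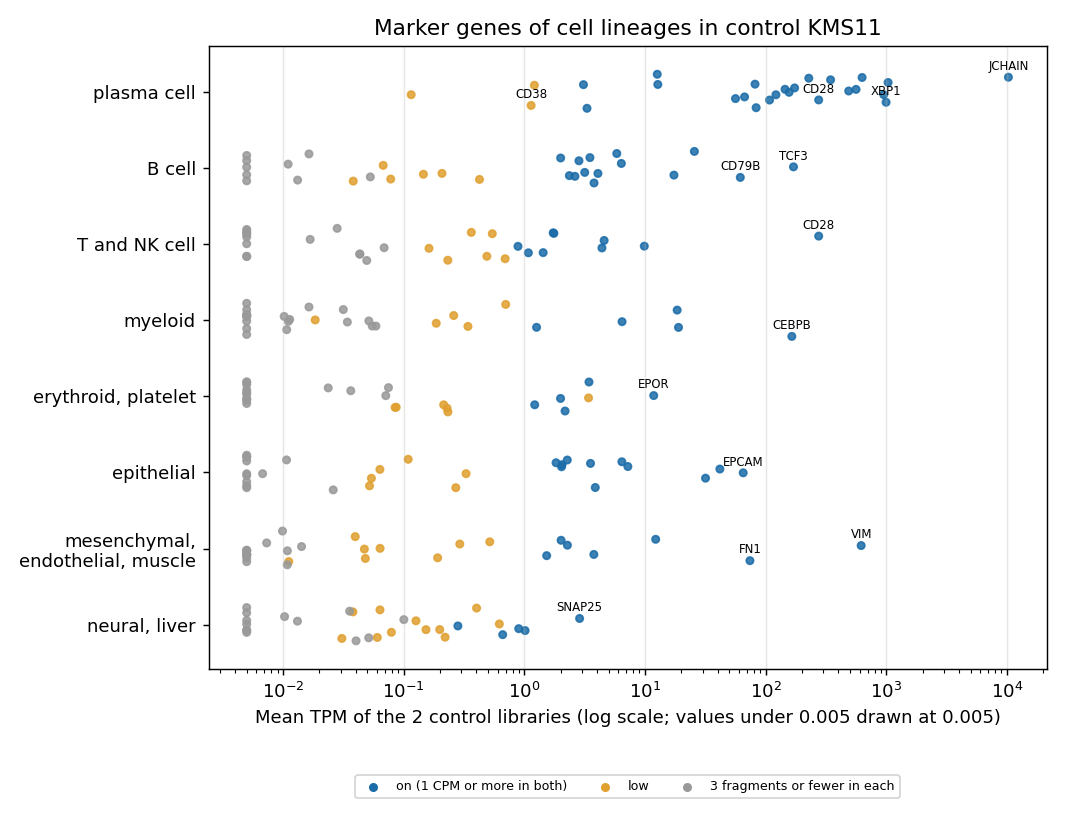
Mean TPM of the 2 control libraries (x axis, log scale) for each gene of 8 marker lists (rows), 1 point per gene, blue where on, yellow where low and grey at 3 fragments or fewer in each library. Plasma cell genes lie mostly above 10 TPM, with 23 of 26 on. The median of each other list lies below 1 TPM, although 14 of 29 B cell genes and 11 of 29 epithelial genes are on. Genes far above that median include TCF3, CD28, CEBPB, EPCAM and VIM.

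B cell identity genes were on in 14 of 29 cases (48.3%), low in 6 and at the floor in 9. MS4A1, which encodes CD20, had 1 fragment or fewer in each library, as did CD22. PAX5, the factor that holds B cell identity, was low at 0.145 and 0.147 TPM. BTK (0.432 and 0.418 TPM) and SYK (0.0701 and 0.0652 TPM), kinases of the B cell receptor, were low. The highest members were TCF3 (175 and 165 TPM), CD79B, a chain of the B cell receptor complex (58.3 and 65.0 TPM), CR2 (26.6 and 24.7 TPM) and CIITA, the regulator of MHC class II genes (16.8 and 17.9 TPM). CD79A, the partner of CD79B, was at 3.32 and 2.35 TPM.

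The antibody genes gave a lopsided picture. Of 350 immunoglobulin genes and pseudogenes, 13 were on, 41 were low and 296 were at the floor. IGKV3-15, a kappa variable gene (ENSG00000244437, chromosome 2, 89384673 to 89385283, GRCh37), held 95.5% and 95.2% of all immunoglobulin fragments, at 5511 and 4507 CPM, and was the highest gene per length by the mean of the libraries, at 38257 and 32354 TPM. MT-CO3 (35648 and 32604 TPM) stood above it in replicate 2. The next, IGKV1-37 (69.9 and 64.5 CPM), IGKV3D-15 (60.8 and 51.7 CPM), IGKV3D-7 (30.8 and 26.2 CPM) and IGKV1D-37 (28.5 and 27.8 CPM), were kappa variable genes too. These genes have near-identical copies, and how the fragments split among them is uncertain. The joining segment IGKJ5 had 1175 and 847 fragments, and IGKJ4 had 28 and 30.

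Few fragments were counted on constant regions by comparison, and fragments that fit several places were not counted. IGHA2 had 583 and 381 fragments (11.6 and 8.15 CPM) and IGHA1 328 and 176. IGKC, the kappa constant gene, had 30 and 17 fragments, but 93.3% of its exonic length is also annotated to ENSG00000231486, and fragments on the exons of 2 genes were not counted for either. That 2nd gene had 9 and 9 fragments. The low value of IGKC therefore cannot be read as a low level of the kappa constant transcript.

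Genes of the endoplasmic reticulum were present throughout the list. All 50 genes of translocation, folding and the unfolded protein response were on (100%), with a median of 126 TPM, and 28 of them stood at 100 TPM or more. CALR (1288 and 1330 TPM), HSPA5, the chaperone BiP (871 and 939 TPM), HSP90B1 (517 and 543 TPM) and P4HB (466 and 453 TPM) serve folding. SEC61A1 (442 and 466 TPM) and SEC61B (445 and 365 TPM) are parts of the translocation channel. ATF4, a factor of the integrated stress response, was at 1145 and 992 TPM. The sensors stood lower, ATF6 at 76.6 and 86.6 TPM, ERN1 at 47.7 and 55.7 TPM and EIF2AK3 at 23.97 and 30.1 TPM.

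The proteasome, the target of bortezomib in myeloma, was on in 39 of 40 genes (97.5%), with a median of 120 TPM. PSMB11, the thymus-specific subunit, is listed at 0. The catalytic subunits of the constitutive particle, PSMB6 (203 and 198 TPM), PSMB7 (340 and 312 TPM) and PSMB5 (138 and 124 TPM), all stood above their immunoproteasome counterparts PSMB9 (43.5 and 37.4 TPM), PSMB10 (75.7 and 66.1 TPM) and PSMB8 (100.3 and 88.3 TPM) in each library. PSMB10 and PSMB8 share 34.8% and 21.2% of their exonic length with other genes. PSMB4 was the highest at 880 and 775 TPM.

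The translocation genes were among the highest oncogenes. FGFR3 (ENSG00000068078, chromosome 4, 1795034 to 1810599, GRCh37) stood at 3959 and 4005 CPM, rank 10 of all genes, or 2513 and 2629 TPM. The next receptor tyrosine kinase was INSR at 30.3 and 30.5 TPM. NSD2 (ENSG00000109685, chromosome 4, 1873151 to 1983934) stood at 1124 and 1485 CPM, or 174 and 238 TPM over an annotated exonic length of 19776 bp that joins every listed transcript. LETM1, a mitochondrial protein gene that lies between them (chromosome 4, 1813206 to 1857974), stood at 20.1 and 23.8 TPM. FGFR3 was 125 and 111 times, and NSD2 8.68 and 10.0 times, as high as LETM1 per length. NSD2 was 11.1 and 11.5 times as high as its relative NSD1 per length. Such ratios between genes are uncertain, because the joined length can exceed that of the transcripts used.

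A list of 16 genes held oncogenes of myeloma translocations, relatives of these, the neighbour LETM1 and the MAF target ITGB7, and 15 were on (93.8%). MYC was at 478 and 442 TPM, against 11.2 and 12.03 TPM for MYCN and 2.03 and 1.92 TPM for MYCL. MAF, the factor joined to the heavy chain locus in t(14;16), was at 327 and 386 TPM. Whether these cells also carry t(14;16) was not tested. ITGB7, an integrin gene known as a MAF target, was at 2202 and 2725 TPM. MAFA was low at 0.996 and 1.74 TPM. Of the D cyclins, which drive entry into the cell cycle, CCND2 led at 335 and 398 TPM. CCND1 (21.2 and 29.3 TPM) and CCND3 (21.2 and 17.7 TPM) did not overlap with CCND2, and their own order was not separated, at a ratio of 0.9986 in replicate 1 and 1.66 in replicate 2. BCL2 stood at 27.9 and 26.1 TPM and BCL6, the germinal centre factor, at 1.71 and 2.29 TPM.

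**Figure D4:**
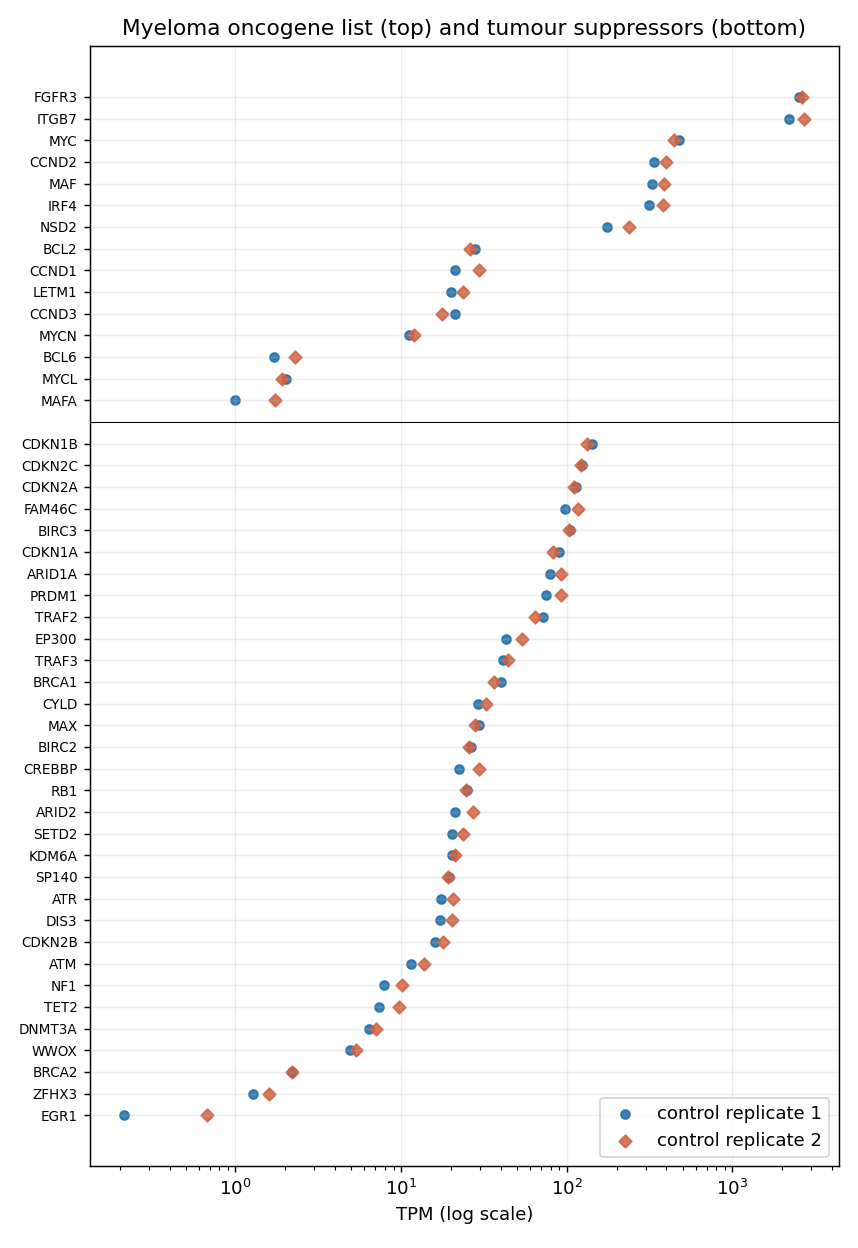
TPM (x axis, log scale) of 15 genes of the myeloma oncogene list (top) and 32 tumour suppressor genes (bottom) in control replicates 1 (circles) and 2 (diamonds). FGFR3 and ITGB7, a MAF target, are the highest of that list in both libraries, and EGR1, which was low, is the lowest of the tumour suppressor genes plotted.

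Signalling genes were broadly present. Of 36 RAS, growth and signalling oncogenes, 35 were on (97.2%), with a median of 47.7 TPM. PIM2, a serine/threonine kinase known for high levels in myeloma, stood at 2325 and 2198 TPM, 16.5 and 13.4 times PIM1 and 11.04 and 13.0 times PIM3. PTP4A3, a phosphatase also called PRL3, was at 235 and 291 TPM. NRAS (40.0 and 46.1 TPM) and HRAS (50.9 and 49.7 TPM) were on, and BRAF was at 13.3 and 18.4 TPM. SRC was the 1 low gene at 0.214 and 0.374 TPM, while its relatives LYN (33.9 and 34.3 TPM) and FYN (29.4 and 19.9 TPM) were on.

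Receptor tyrosine kinases were on in 20 of 45 cases (44.4%), and their median was 0.284 TPM. FGFR3 was 230 and 188 times FGFR4, 225 and 232 times FGFR2 and 1425 and 1455 times FGFR1 per length. After FGFR3 and INSR came, among others, ROR2 (14.8 and 17.6 TPM) and IGF1R, the receptor of a plasma cell growth factor (12.8 and 15.6 TPM). MET was at 1.57 and 1.46 TPM and EGFR at 0.624 and 0.828 TPM. KIT, FLT3, PDGFRA and KDR were among the 13 at the floor.

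Tumour suppressor genes of myeloma were on in 32 of 34 cases (94.1%), with a median of 25.4 TPM. CDKN1B (142 and 133 TPM), CDKN2C (124 and 122 TPM), CDKN2A (114 and 110 TPM) and CDKN1A (89.4 and 82.5 TPM), all inhibitors of cyclin-dependent kinases, were among the highest. FAM46C, a poly(A) polymerase gene often mutated in myeloma, was at 98.1 and 117 TPM. The regulators of NF-kB signalling BIRC3 (104 and 104 TPM), TRAF2 (71.7 and 64.4 TPM), TRAF3 (40.9 and 44.0 TPM) and CYLD (29.02 and 32.3 TPM) were on. RB1 stood at 24.97 and 24.6 TPM, KDM6A at 20.3 and 21.1 TPM, DIS3 at 17.3 and 20.4 TPM, and WWOX, at the chromosome 16 fragile site near MAF, at 4.92 and 5.38 TPM. BRCA2 (2.19 and 2.19 TPM) and ZFHX3 (1.28 and 1.60 TPM) were the lowest on, and EGR1 was low at 0.213 and 0.671 TPM.

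Surface proteins used or proposed as targets in myeloma were on in 32 of 48 cases (66.7%), close to the background of 60.1%. CD74, the invariant chain of MHC class II, stood at 2868 and 2420 TPM, ITGB7 and TNFRSF17 as given above, and the amino acid transporters SLC7A5 at 1451 and 1251 TPM, SLC1A5 at 957 and 715 TPM and SLC3A2 at 496 and 413 TPM. Other targets were SLAMF7, bound by elotuzumab (158 and 189 TPM), CD28, a costimulator (225 and 325 TPM), CD48 (183 and 169 TPM), CD9 (266 and 273 TPM), CD59 (120 and 136 TPM), CD46 (99.1 and 110 TPM), CD70 (110 and 99.1 TPM), TFRC (89.8 and 125 TPM), FAS (108 and 97.1 TPM), ICAM1 (95.3 and 110 TPM), CD47 (71.0 and 78.9 TPM) and IL3RA (67.2 and 73.0 TPM). In the middle stood TNFRSF13B, the receptor TACI (48.7 and 66.4 TPM), LY9 (43.6 and 44.0 TPM), LILRB4 (38.1 and 44.3 TPM), GPRC5D (25.2 and 33.3 TPM), CD44 (22.8 and 26.4 TPM) and CD276 (16.6 and 16.1 TPM).

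Other surface targets were low or at the floor. CD274, the ligand PD-L1, stood at 0.548 and 0.595 TPM, FCRL5 at 0.113 and 0.158 TPM, CD40 at 0.103 and 0.201 TPM, CD200 at 0.133 and 0.415 TPM and TNFRSF13C, the receptor of BAFF, at 1.05 and 0.733 TPM. NCAM1, which encodes CD56, passed 1 CPM in both libraries but stood at 0.467 and 0.585 TPM. CD80, CD52, CD33, CD22, VTCN1, CD5 and KIT were the 7 at the floor. CD38 was low, as given above.

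MHC genes were on in 21 of 23 cases (91.3%). B2M, the light chain of class I, stood at 2969 and 3010 TPM, HLA-B at 1508 and 1389 TPM and HLA-C at 1225 and 1129 TPM. Class II was present as well, with HLA-DRA at 2902 and 2656 TPM and HLA-DRB1 at 733 and 579 TPM, whereas HLA-DPB1 (104 and 80.8 TPM), HLA-DPA1 (53.4 and 44.7 TPM) and HLA-DQA1 (43.0 and 35.7 TPM) were lower. HLA-G (1.69 and 1.81 TPM) and HLA-DOA (0.212 and 0.118 TPM) were low. HLA genes are alike and variable in sequence, and levels read on a reference genome are uncertain for each.

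Cytokine and chemokine receptors were on in 35 of 50 cases (70.0%). IL2RG, the gamma chain shared by receptors of several interleukins, stood at 1412 and 1504 TPM (ENSG00000147168, chromosome X, 70327254 to 70331958). Among its partners, IL2RA and IL7R were at the floor, IL2RB was low at 0.492 and 0.823 TPM and IL21R was at 50.8 and 55.7 TPM. For interleukin 6, a growth factor of plasma cells, the signalling chain IL6ST was at 121 and 132 TPM and the binding chain IL6R at 36.5 and 44.9 TPM. CXCR4, which holds plasma cells in the marrow, was at 153 and 109 TPM and CCR1 at 68.1 and 117 TPM. CSF2RB was at 89.2 and 104 TPM. Of its partners, IL3RA was on, as given above, and CSF2RA and IL5RA were at the floor.

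Secreted cytokines and growth factors were on in 27 of 57 cases (47.4%). HDGF (1013 and 1025 TPM), LTB, the beta chain of lymphotoxin (614 and 688 TPM), GRN (297 and 299 TPM), IL32 (249 and 259 TPM) and TGFB1 (147 and 137 TPM) led. WNT10A, a Wnt ligand, stood at 116 and 134 TPM, and 6 of 19 Wnt ligand genes were on. HGF, the ligand of MET, was at 50.3 and 74.4 TPM, VEGFA at 59.3 and 73.9 TPM, BMP6 at 60.1 and 72.6 TPM and IGF1 at 18.6 and 28.1 TPM. IL6 itself had 3 fragments or fewer in each library, as did TNF, IL1B, TNFSF11, SPP1 and IL18. DKK1, a Wnt inhibitor tied to bone loss in myeloma, was low at 0.110 and 0.215 TPM. MIF was low at 1.98 and 2.51 TPM, but 61.9% of its exonic length is shared with other genes, so its level is uncertain.

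Markers of other cell types were mostly low or at the floor. T and NK cell markers were on in 9 of 29 cases (31.0%) and at the floor in 14. Apart from CD28, the highest were LCK (10.0 and 9.71 TPM), CD3E (4.69 and 4.11 TPM) and ZAP70 (3.88 and 5.29 TPM), whereas CD3D and GZMB are listed at 0 or had 3 fragments or fewer in each library. Myeloid markers were on in 5 of 30 cases (16.7%) and at the floor in 20. CEBPB, a factor also used outside myeloid cells, stood at 203 and 126 TPM, PRTN3 at 19.3 and 18.6 TPM and CLEC7A at 16.5 and 20.4 TPM, while LYZ, MPO and S100A8 are listed at 0. Erythroid and platelet markers were on in 5 of 25 cases (20%), with EPOR highest at 13.3 and 10.3 TPM. With a minimum of 2 CPM, 5 T and NK cell markers and 2 erythroid and platelet markers were on. The globins HBA1 and HBA2 were at the floor, HBB was low at 0.0933 and 0.364 TPM and HBD was low at 2.46 and 4.35 TPM, and near-identical globin copies make these uncertain.

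Non-blood markers showed the same pattern with a few exceptions. Epithelial markers were on in 11 of 29 cases (37.9%). EPCAM stood at 72.3 and 58.0 TPM, CLDN3 at 43.3 and 40.2 TPM, MUC1 at 27.8 and 35.7 TPM and ESRP1 at 11.1 and 3.36 TPM, while the keratin genes KRT8 (0.0729 and 0.0542 TPM), KRT5, KRT14, KRT19 and KRT20 were low or at the floor. Lower members that were on included KRT18 (3.67 and 4.07 TPM), which shares 24.7% of its exonic length with other genes, KRT7 (2.22 and 2.32 TPM) and CDH1 (1.56 and 2.10 TPM). Over the whole family 7 of 55 keratin genes were on, led by KRT10 at a mean of 37.7 TPM. Mesenchymal, endothelial and muscle markers were on in 7 of 29 cases (24.1%): VIM, an intermediate filament that blood cells also use, stood at 638 and 599 TPM, FN1 at 49.7 and 98.4 TPM and TWIST1 at 15.2 and 9.32 TPM. COL1A1 was low at 0.217 and 0.366 TPM, and COL1A2, DCN and CDH5 were at the floor. Neural and liver markers were on in 5 of 29 cases (17.2%), none above SNAP25 at 2.99 and 2.75 TPM, with ALB at 0.758 and 0.483 TPM. Their count was 8 with a minimum of 10 fragments in each library, 2 with 2 CPM and 1 with 1 TPM.

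Cancer-testis antigens, genes normally used in the germ line, were on in 10 of 56 cases (17.9%) and at the floor in 40. CTAG2, which encodes LAGE-1 (chromosome X, 153880246 to 153881853), stood above the others at 1151 and 1037 TPM. LAGE3 (193 and 156 TPM), MAGED2 (132 and 128 TPM) and MAGED1 (76.2 and 82.9 TPM) followed, and these are known to be used widely outside the germ line. PRAME was at 21.8 and 26.1 TPM, SYCP3 at 10.97 and 18.3 TPM and MAGEC1 at 2.01 and 2.54 TPM. CTAG1B, the gene of NY-ESO-1, was low at 0.610 and 1.02 TPM. CTAG1B and many MAGEA, GAGE, SSX and SPANX genes have near-identical copies, and fragments that fit several places were not counted. A value that is low or at the floor therefore does not show that such a gene was off.

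Chromatin genes formed a fully transcribed group, with 50 of 50 on (100%) and a median of 27.7 TPM. SMARCB1, at 210 and 208 TPM, and NSD2, as given above, were the highest, and their order differed between the libraries. The paired ATPases of the SWI/SNF remodeller, SMARCA4 (92.7 and 97.7 TPM) and SMARCA2 (85.9 and 97.7 TPM), stood at a ratio of 1.08 in replicate 1 and 1.00 in replicate 2. EZH2, the main H3K27 methyltransferase, was at 96.2 and 92.1 TPM and EZH1 at 66.4 and 68.0 TPM, with SUZ12 at 104 and 112 TPM and EED at 8.57 and 8.18 TPM. DNMT1 stood at 102 and 108 TPM, above DNMT3B (22.1 and 23.1 TPM) and DNMT3A (6.38 and 7.07 TPM). SMARCD3 (7.32 and 6.90 TPM), KDM5B (4.92 and 6.65 TPM) and TET1 (3.32 and 5.25 TPM) were among the lowest.

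Cell cycle genes were on in 48 of 49 cases (98.0%), with a median of 106 TPM. MYBL2, a factor of dividing cells, led at 741 and 677 TPM, followed by PCNA (647 and 495 TPM), RRM2 (531 and 446 TPM), TOP2A (419 and 410 TPM) and E2F1 (414 and 386 TPM). MKI67 stood at 109 and 133 TPM, CDK4 at 216 and 191 TPM and CDK6 at 39.0 and 47.9 TPM. TERT, the catalytic part of telomerase, was on at 4.63 and 5.15 TPM, and CCNA1, the germ line cyclin A, was low at 0.899 and 1.86 TPM.

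Genes of the BCL2 family, some of which hold back cell death and others promote it, were on in 16 of 20 cases (80.0%). MCL1, which plasma cells depend on, stood at 535 and 534 TPM, 1.99 and 1.66 times BCL2L1 (268 and 321 TPM) and 19.2 and 20.5 times BCL2. The effectors BAK1 (98.5 and 109 TPM) and BAX (105 and 89.4 TPM) overlapped. Of the BH3-only genes, BMF (84.0 and 94.8 TPM), BID (48.7 and 41.9 TPM), PMAIP1 (46.0 and 37.9 TPM), BBC3 (30.6 and 20.7 TPM) and BCL2L11 (16.3 and 20.3 TPM) were on. BCL2A1, BOK and BCL2L14 were at the floor.

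DNA repair and APOBEC genes were on in 26 of 30 cases (86.7%). PARP1 (500 and 552 TPM), XRCC6 (499 and 522 TPM) and XRCC5 (240 and 250 TPM) led. Of the APOBEC3 cytidine deaminases, APOBEC3C (129 and 135 TPM) and APOBEC3B (56.4 and 49.8 TPM) were highest, APOBEC3D (17.7 and 14.0 TPM) and APOBEC3G (14.8 and 14.4 TPM) followed, and APOBEC3A was at the floor.

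Energy metabolism was on in 43 of 48 genes (89.6%). ENO1 (1490 and 1719 TPM), TPI1 (794 and 960 TPM), LDHB (719 and 712 TPM) and PKM (575 and 746 TPM) followed GAPDH. SCD (493 and 728 TPM) and FASN (312 and 480 TPM) make fatty acids, and SHMT2 (427 and 346 TPM), PSAT1 (289 and 208 TPM), ASNS (275 and 209 TPM) and PHGDH (127 and 92.9 TPM) make serine, glycine or asparagine. HK2, at a mean of 58.7 TPM, stood above HK1 (4.71 and 6.47 TPM) in both libraries. The nuclear respiratory chain was on in 44 of 49 genes (89.8%) with a median of 169 TPM, led by ATP5B at 1940 and 2032 TPM, and the 5 others were isoforms of cytochrome c oxidase known from testis, muscle or lung, such as COX6B2 and COX7A1. All 20 cytosolic aminoacyl-tRNA synthetases were on, from HARS at 24.6 and 24.01 TPM to AARS at 503 and 441 TPM.

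Lysosomal genes were on in 24 of 27 cases (88.9%). PSAP, the saposin precursor, stood at 1055 and 1001 TPM, and the proteases LGMN at 577 and 722 TPM, CTSA at 258 and 238 TPM and CTSB at 228 and 269 TPM. Integrins and adhesion genes were on in 29 of 41 cases (70.7%), but their median was 2.59 TPM. ITGB7 exceeded its known partners ITGA4 (35.6 and 38.8 TPM) and ITGAE (7.82 and 7.81 TPM), and SELPLG (255 and 277 TPM), ICAM1, as given above, ITGB1 (67.1 and 71.9 TPM) and ITGAL (38.6 and 44.7 TPM) were among the other high members. ITGB2, the usual partner of ITGAL, was at 1.03 and 1.21 TPM.

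Interferon-stimulated genes were on in 32 of 43 cases (74.4%), with a median of 3.62 TPM. BST2, also a myeloma surface antigen, stood at 707 and 645 TPM, and STAT2 (116 and 133 TPM) and IFI6 (99.0 and 110 TPM) were also on. ISG15 (8.99 and 7.93 TPM), MX1 (3.77 and 4.27 TPM) and IFIT1 (1.11 and 2.51 TPM), classic targets of an interferon response, were on but lower, and RSAD2 (0.176 and 0.267 TPM) was low. IFITM3 and IFI44L were at the floor.

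Most genes of developmental families and of several other families were not on. HOX genes were on in 4 of 39 cases (10.3%), led by HOXB9 (27.2 and 19.4 TPM), with HOXA5 (3.57 and 3.46 TPM), HOXC13 (2.07 and 1.67 TPM) and HOXB4 (2.01 and 1.37 TPM). That count was 14 with a minimum of 10 fragments in each library and 1 with a minimum of 2 CPM. Of the 39 HOX genes, 14 share over 20% of their exonic length with other genes, so their levels are uncertain. Of the families picked by symbol after the values were seen, olfactory receptors were on in 3 of 356 cases, keratin-associated proteins in 0 of 92, defensins in 0 of 45, cytochromes P450 in 12 of 55, protocadherins in 7 of 63 and metallothioneins in 1 of 11. SOX2, a factor of stem and neural cells, was on at a mean of 28.3 TPM among 7 of 19 SOX genes on, and PAX genes were on in 1 of 9 cases. By contrast 377 of 509 ZNF zinc finger genes (74.1%) and 206 of 371 solute carriers (55.5%) were on.

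Nuclear receptors were on in 29 of 47 cases (61.7%), near the background. NR1H2 (58.8 and 51.0 TPM), RARA (49.7 and 52.5 TPM) and RXRB (46.9 and 45.8 TPM) led, and NR3C1, the glucocorticoid receptor through which dexamethasone acts on myeloma, stood at 34.3 and 38.2 TPM. PGR and PPARG were at the floor. Of the targets of lenalidomide, the ligase part CRBN was at 12.7 and 12.6 TPM, and IKZF3 at 154 and 301 TPM stood 53.0 and 81.4 times above IKZF1 (2.91 and 3.70 TPM).

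Long noncoding RNA genes chosen for study were on in 24 of 32 cases (75.0%). The share on was 4.25% of long intergenic noncoding genes, 8.35% of antisense genes and 20.5% of processed transcripts. It was 21.1% of all genes in the files, most of those on being protein-coding. The list holds well-studied genes and is not a sample of these classes. NORAD (384 and 408 TPM), MALAT1 (210 and 208 TPM), MIAT (153 and 241 TPM), DANCR (189 and 190 TPM), TUG1 (140 and 157 TPM), GAS5 (152 and 137 TPM) and NEAT1 (128 and 144 TPM) were the highest. PVT1, beside MYC, was at 13.5 and 14.8 TPM. H19, HOTAIR and MEG3 were at the floor.

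By chromosome, the share of protein-coding genes on ran from 50.4% on chromosome 11 to 68.8% on chromosome 22 among the autosomes. Over the autosomes and the X chromosome, the median of the genes on was lowest on chromosome 13, at 9.69 TPM, followed by chromosome 14 at 13.5 TPM, and highest on chromosome 20, at 33.3 TPM, followed by the X chromosome at 32.5 TPM. Chromosome 13 has 1.62% of protein-coding genes and took 0.798% and 0.814% of fragments, and chromosome 4, which holds JCHAIN, FGFR3 and NSD2, has 3.84% and took 4.39% and 4.42%. Gene content differs between chromosomes, and its part in these medians was not tested.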

How the data were processed

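The deposited counts are whole-number fragment counts per Ensembl gene, 1 file per library. Per the submitters' processing notes, reads were trimmed with Trim Galore 0.3.7, aligned with STAR 2.5.3 to GRCh37 and counted with featureCounts of Subread 1.4.6; Picard and DESeq2 are also named. Per the file headers, counting ignored strand and used alignments named as free of duplicates, without the options that count multi-mapping or overlapping fragments. Fragments shared by overlapping genes or by identical copies are therefore lost, and removing duplicates can lower the most abundant genes. The deposited exonic length of each gene (another unit, bp) came from the table of the series; its 4 count columns and the authors' contrast were not used. A blank line per file (2 in all) was left out.

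From the counts, CPM (per total counted fragments) and TPM (counts per exonic length, scaled to a sum of 1e6) were computed with Python 3.11.15, pandas 2.3.3 and numpy 2.4.6, and checked on simulated counts. The threshold for on was 1 CPM in both libraries, and the floor was 3 fragments. Gene types came from GENCODE 29 by identifier (50409 of 62069 genes matched). Symbols are those of the deposited table (36551 genes) or of the reference names (50127 genes). Promoters came from the RefSeq table of GRCh38.p14, the first listed start of each gene. TMM factors (edgeR 4.0.16) and size factors (DESeq2 1.42.0) in R 4.3.3, other thresholds and single libraries were alternatives. Figures were drawn with matplotlib 3.10.9.

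The libraries and gene lists were chosen with earlier results of these data known. The rule for named genes took the 20 highest by CPM and by TPM, FGFR3, NSD2, CCND1, PTP4A3 and SMARCA2, the 8 highest and 4 lowest of each list, whole lists of up to 16 genes, the tumour suppressor, surface target and lineage lists, and the 8 highest immunoglobulin genes. Some genes that the rule took are not reported here. Other genes named were chosen after their values were seen. List genes with no match in the files have no value here.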

Additional observations from a re-analysis of the deposited data

How the results depend on the processing

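No paired analysis was possible because the results come from no test and describe 1 group.

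The number of genes on was 13118, between 11937 (2 CPM) and 16590 (at least 10 fragments in each library) under the other thresholds and scalings, and 29163 with at least 1 fragment in either library. Leaving out 1 library gave 13296 to 13437. Protein-coding genes on numbered 11527 and stayed within 1.5 times that count under every alternative run. The 100 most abundant genes held 21.3% ± 0.207 (SD, n = 2) of fragments, 17.6% without mitochondrial genes and 40.2% as a share of TPM, and mitochondrial genes held 5.87% ± 0.0205 (SD, n = 2) of fragments and 20.04% of TPM. The TMM and DESeq2 scalings moved no gene's mean CPM among the named and listed genes by more than 1.502%. Without mitochondrial genes in the library size these means were 1.06-fold higher at the median. After seeing the data, the same scalings were tried on the median distance between libraries (0.141 on the log2 scale), which became 0.142, 0.150 and 0.141.

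Counts of list members on moved by over 1.5 times for 4 of 32 lists at 2 CPM, 2 at 10 fragments, 1 at 1 TPM and 11 with no filter. At 2 CPM, 5 T and NK cell, 2 erythroid, 2 neural and liver and 1 HOX gene were on. At 10 fragments, 8 neural and liver and 14 HOX genes were on, and at 1 TPM 1 neural and liver gene. With no filter, these 11 lists had between 15 and 50 members on. How far sequencing depth limits these counts was not tested.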
